A study of Homo sapiens with 8 samples.

Results

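The 5 hairpins hsa-miR-140, hsa-miR-423, hsa-miR-361, hsa-miR-324 and hsa-miR-339 were examined through the 2 mature miRNAs of each, 1 from the 5p arm and 1 from the 3p arm. They were chosen by name, as hairpins with a single locus whose arms are both commonly loaded into Argonaute, a rule that uses no value of these libraries, although earlier results of these data were known when it was set. They account for 10 of the 3112 miRNAs in the count table, of which 1482 were known and the others predicted. The quantity of interest was, in each library, the level of the 5p arm divided by that of the 3p arm.

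Small RNA was sequenced from 786O cells, an established human clear cell renal cell carcinoma line that lacks functional VHL. The NC group (4 libraries) received a negative control plasmid, and the circSOD2-sh group (4 libraries) received a plasmid carrying a short hairpin RNA against circSOD2, a circular RNA of the SOD2 gene. Per the labels, both groups were transfected with Lipofectamine 3000 and RNA was taken 48 h later, whereas the methods of the study describe lentiviral delivery with puromycin selection. Neither source names which short hairpin was used, the level of circSOD2 was not analysed here, and nothing states that the 4 libraries of a group came from separate cultures, so p-values measure the spread between these libraries, which may be technical.

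A miRNA hairpin is cut from its primary transcript by Drosha and trimmed by Dicer to a short duplex. An Argonaute protein then keeps 1 strand as the guide and discards the other. The strand whose 5′ end is less tightly paired, and whose first base is U or A, tends to be kept, although many hairpins supply both strands. Because the arms come from the same precursor, their ratio reflects processing, strand choice, stability and capture in the library rather than transcription. Each arm has its own seed (bases 2 to 8), which pairs with targets, so a shift between arms changes which transcripts can be bound.

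The mature sequences are shown because the arms of a hairpin carry unrelated seeds and because their 5′ ends are referred to below. The RefSeq sequences (GRCh38.p14) matched 10 of the 10 members by name, and capitals mark the seed.
hsa-miR-140-5p: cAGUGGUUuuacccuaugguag
hsa-miR-140-3p: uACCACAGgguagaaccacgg
hsa-miR-361-5p: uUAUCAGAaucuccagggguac
hsa-miR-361-3p: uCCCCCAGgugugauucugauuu
hsa-miR-423-5p: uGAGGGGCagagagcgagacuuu
hsa-miR-423-3p: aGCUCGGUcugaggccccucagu
hsa-miR-324-5p: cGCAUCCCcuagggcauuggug
hsa-miR-324-3p: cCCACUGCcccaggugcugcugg
hsa-miR-339-5p: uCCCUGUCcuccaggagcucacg
hsa-miR-339-3p: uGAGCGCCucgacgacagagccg
The 10 arms were 21 to 23 bases long, so levels of the 2 arms were compared without a correction for length. No 2 members shared a seed.

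The loci were taken from GENCODE release 29 on GRCh38, and RefSeq gave the same coordinates. MIR140 (chr16:69933081-69933180, plus strand) lies in an intron of WWP2, a ubiquitin ligase gene, on the same strand. MIR361 (chrX:85903636-85903707, minus strand) lies in an intron of CHM, which encodes a Rab escort protein, and MIR339 (chr7:1022933-1023026, minus strand) in an intron of C7orf50, both on the strand of the host gene. MIR324 (chr17:7223297-7223379, minus strand) lies opposite ACADVL, a gene of fatty acid oxidation, and overlaps none of its exons. MIR423 (chr17:30117079-30117172, plus strand) overlaps an annotated exon of NSRP1 on the same strand, and MIR3184 (chr17:30117086-30117160, minus strand) is annotated on the opposite strand of the same stretch. The sources used here do not state whether counting used the strand. hsa-miR-3184-5p, whose seed is the one of hsa-miR-423-5p, held 1 count over the 8 libraries. hsa-miR-3184-3p, which has the coordinates of hsa-miR-423-5p on the opposite strand, was not in the count table. A misassignment of reads between the overlapping hairpins was not tested.

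Total counts were between 6386872 and 9245044 per NC library and between 3743860 and 4208276 per circSOD2-sh library, while known miRNAs held 2344870 to 3573638 and 3604691 to 4059249 counts. Levels are given as normalised CPM, that is CPM after TMM scaling in edgeR, which assumes that most miRNAs did not change. The TMM factors were 0.70 to 0.73 in NC and 1.33 to 1.48 in circSOD2-sh. With this scaling 588 of the 895 miRNAs tested had an adjusted p under 0.05 in edgeR (65.7%), 298 higher and 290 lower. These calls go against that assumption. With plain library totals the median log2 change of all miRNAs moved from -0.0021 to 0.96, and the direction of small changes in level below therefore depended on the scaling. A floor of 3 counts corresponded to 0.46 to 0.67 normalised CPM. The 5 kidney tubule markers were all present, and their summed level ranged from 39549 to 46440 normalised CPM across NC and from 43792 to 54753 across circSOD2-sh. The sum hides members that moved apart. Under TMM scaling in edgeR the log2 change was -0.87 for miR-192-5p, -0.92 for miR-194-5p and -0.42 for miR-215-5p. It was 0.25 for miR-30a-5p, and no value is given for miR-204-5p. Markers of other cell types stood out in 2 libraries. The 4 muscle and stroma markers summed to 554 in NC replicate 4, where the rest of NC had 17.7 to 22.8, and to 238 in circSOD2-sh replicate 2, where the rest of its group had 18.3 to 39.3. The 4 leukocyte markers summed to 17.1 and 14.7 in these 2 libraries and to 1.19 to 3.21 in the other 6, and the 2 erythroid markers to 113 and 38.7 and to 8.19 to 23.5. The 3 neural markers summed to 4967 in circSOD2-sh replicate 2 and to 467 to 549 in the other 7 libraries. The liver marker miR-122-5p was lower in every circSOD2-sh library (1.36 to 2.49 normalised CPM) than in any NC library (3.75 to 5.83). The hypoxia-responsive miR-210-3p likewise did not overlap, with 13.9 to 19.8 in circSOD2-sh and 19.95 to 27.0 in NC, and the part of these differences in the results below was not tested. No marker was at 0 in all 8 libraries. Results are therefore also given without these libraries where that changed a call.

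The balance of the arms differed between NC and circSOD2-sh in the 5 hairpins (limma on the log2 ratio, adjusted p under 0.05), toward the 5p arm in miR-339 and miR-140 and toward the 3p arm in miR-324, miR-423 and miR-361. Among all 117 hairpins with both arms past the low-count filter, 68 were called (58.1%), 36 toward the 5p arm and 32 toward the 3p arm. The groups did not overlap in 5 of 5 members and in 65 of 117 hairpins (55.6%). miR-324 has to be read apart, because its 3p arm passed the low-count filter through the circSOD2-sh libraries alone and so had to differ. Of the 100 hairpins whose arms passed in libraries of both groups, 56 were called (56.0%), and the other 4 members were. These 4 calls stand against a background in which more than 1 hairpin in 2 was called. Each of the 4 reached the smallest two-sided p-value that an exact permutation test of 4 against 4 allows, 0.0286.

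**Figure D1:**
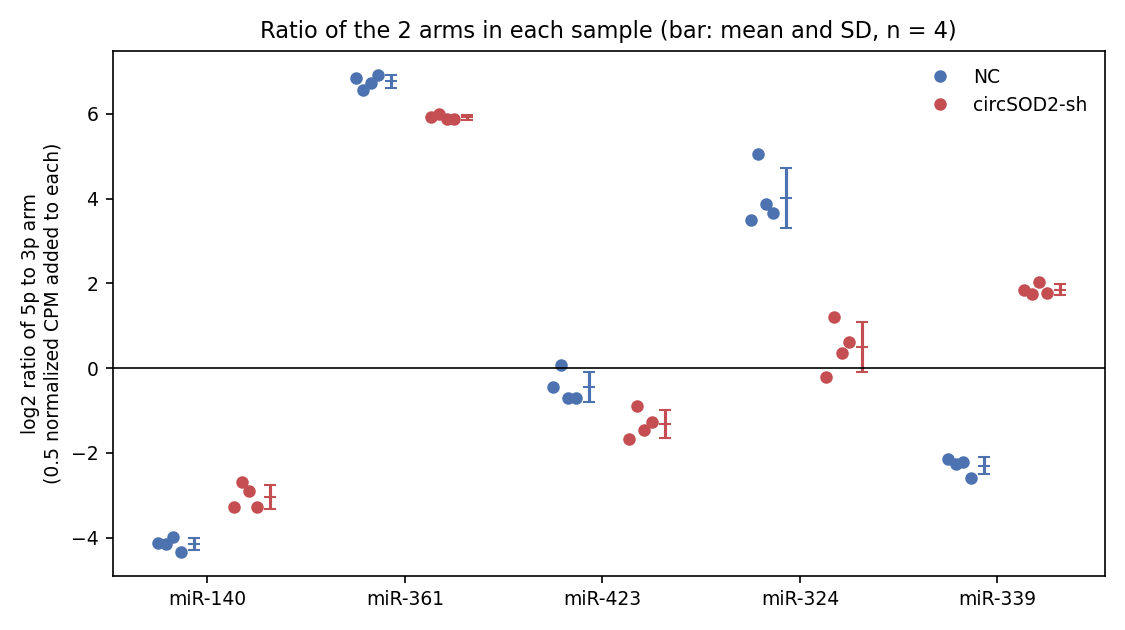
The log2 5p to 3p ratio (0.5 normalised CPM added to each arm) is plotted for the 5 hairpins, with 1 point per library, a line at each group mean and error bars of 1 SD (n = 4 per group). The groups do not overlap in any of the 5 hairpins, and miR-339 is the only member whose mean crosses 0, from -2.30 in NC to 1.85 in circSOD2-sh.

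All 10 arms passed the low-count filter, 9 of them in every library and miR-324-3p in 4 of 4 circSOD2-sh libraries and 0 of 4 NC libraries. In these bulk libraries, fewer cells with a miRNA and less of it per cell cannot be told apart. Of these, 6 were higher in circSOD2-sh (miR-140-5p, miR-423-3p, miR-361-3p, miR-324-5p, miR-324-3p and miR-339-5p), against 33.3% of all 895 miRNAs tested. Another 2 were lower, miR-140-3p and miR-339-3p, against 32.4% of all, and these 2 lower arms turned to higher when counts were scaled by library totals, by the upper quartile or with the deposited CPM. The groups did not overlap for 8 of the 10 arms, against 60.3% of all miRNAs tested. Among miRNAs that passed in libraries of both groups, 31.5% of 682 were higher and 26.8% lower, and of the 9 such members 5 were higher and 2 lower. With library totals 10 of 10 arms were called, all higher, where 86.1% of all miRNAs tested were called. The number called was 6 without a low-count filter (21.0% of all 3112), where miR-324-5p and miR-423-3p were no longer called, and between 6 and 8 when 1 library was left out (60.0% to 68.2% of all).

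**Figure D2:**
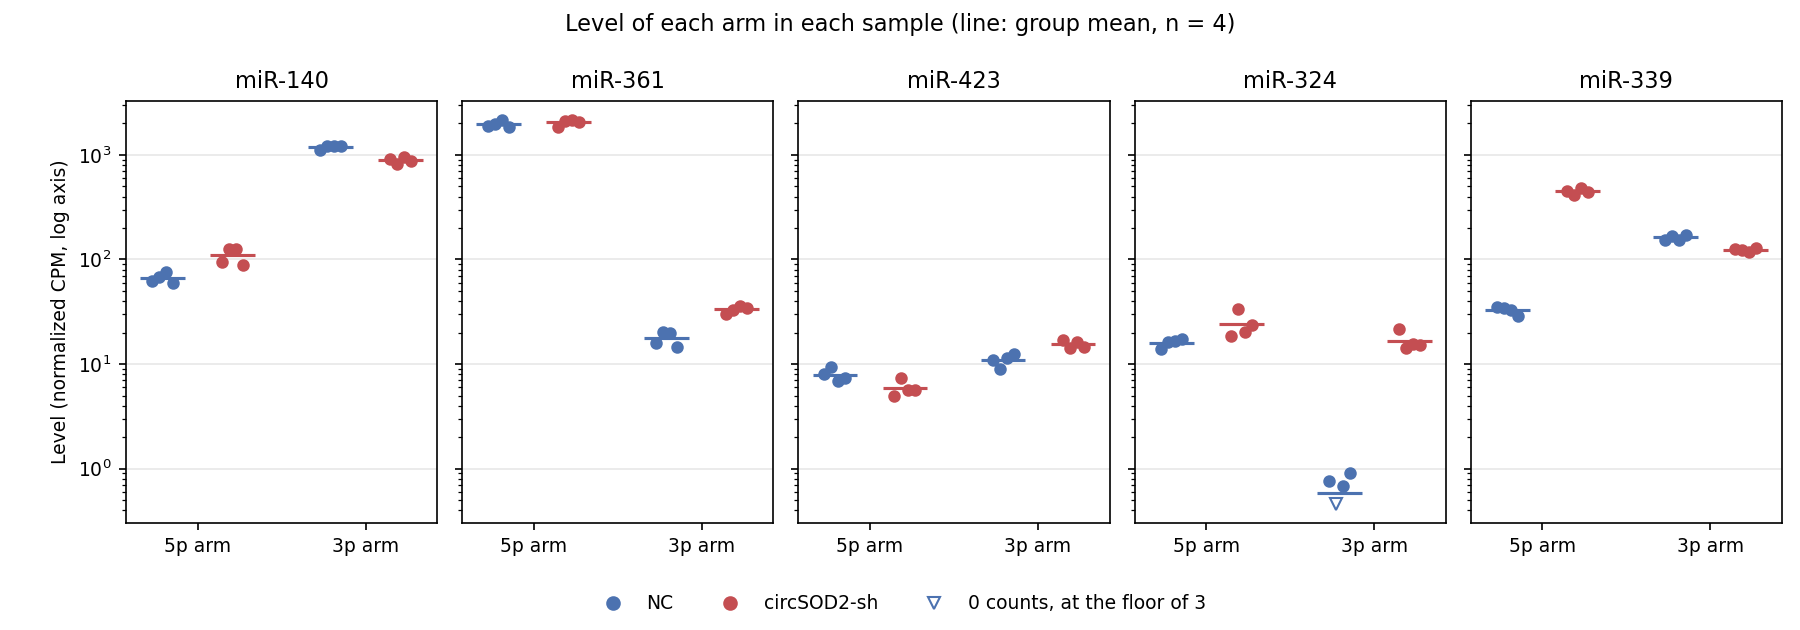
Levels of the 10 arms in normalised CPM on a log axis, 1 point per library, with NC and circSOD2-sh side by side. miR-361-5p and miR-140-3p are the most abundant arms in NC, at 1957 and 1190 normalised CPM, and miR-324-3p is the lowest, at 0.59.

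The hairpin of miR-339 showed the largest change of balance of the 5 when 0.5 or 5 normalised CPM were added to each arm. The change of miR-324 was the larger with 0.5 counts added (-4.58 against 4.17). It was also the larger in edgeR on the counts of both arms (-4.27 against 4.17). miR-339-5p is known to target MDM2, the ubiquitin ligase that acts on p53. In the NC libraries miR-339-5p stood at 34.8, 34.6, 33.1 and 28.5 normalised CPM, and in the circSOD2-sh libraries at 456, 412, 486 and 442. Every circSOD2-sh library was thus far above every NC library. The level rose by 3.77 ± 0.11 on the log2 scale (SE, edgeR, adjusted p = 1.13e-09), and its rank among the 463 known miRNAs tested went from 189 to 77.

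The partner arm, miR-339-3p, moved the other way. It stood at 155, 169, 155 and 173 normalised CPM in NC and at 127, 122, 118 and 128 in circSOD2-sh. The groups did not overlap, but the gap was small. The log2 change was -0.40 ± 0.09 (SE, edgeR, adjusted p = 0.00266), and it was 0.42 to 0.57 with library totals, the upper quartile or the deposited CPM.

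Within a library the scaling cancels apart from the constant of 0.5 added to each arm. The log2 ratio of miR-339-5p to miR-339-3p was -2.14, -2.27, -2.21 and -2.58 in NC, and 1.84, 1.75, 2.04 and 1.78 in circSOD2-sh. The 3p arm was the more abundant in each NC library and the 5p arm in each circSOD2-sh library. The ratio rose by 4.15 ± 0.14 on the log2 scale (SE, limma, adjusted p = 8.14e-09), or 17.8-fold. The share of the 5p arm in the counts of both arms went from 16.8% ± 1.83 (SD, n = 4) to 78.3% ± 1.48 (SD, n = 4). Of the 117 hairpins tested, 9 changed the side of their mean ratio between the groups, 8 of them called (6.84% of 117), and miR-339 was the only member to do so.

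The sum of both miR-339 arms was 190, 204, 186 and 201 normalised CPM in NC and 577, 542, 615 and 566 in circSOD2-sh. The sum rose as well, by 1.56 ± 0.08 on the log2 scale (SE, edgeR, adjusted p = 8.41e-08). Of all 786 rows tested after summing arms, 524 were called (66.7%), and 3 of the 5 members were.

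miR-324 changed in the opposite sense, toward its 3p arm. miR-324-5p is known to target GLI1, a transcription factor of Hedgehog signalling, and the hairpin is a known case of arm switching, in which uridylation of the precursor moves the Dicer cut. The counts of miR-324-3p were 5, 0, 4 and 4 in NC and 126, 81, 78 and 86 in circSOD2-sh. In NC this arm therefore lay at or close to the floor of 3 counts, which is 0.462 normalised CPM in the library with 0 counts. Its level was 0.767, 0, 0.682 and 0.899 normalised CPM in NC and 21.4, 14.3, 15.7 and 15.3 in circSOD2-sh. The groups were far apart, by 4.84 ± 0.44 on the log2 scale (SE, edgeR), a size that moved between 3.90 and 5.79 over 19 alternative settings. No test is given for this difference, since the arm entered the table of tested miRNAs through the circSOD2-sh libraries alone. The name of the set as hairpins with 2 used arms was therefore not borne out for miR-324 in NC, where the 3p arm was hardly detected. By share of counts miR-361 was more one-sided still, with 99.1% on its 5p arm in NC, although its 3p arm held 65 to 131 counts per NC library.

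miR-324-5p stood at 13.8, 16.2, 16.7 and 17.3 normalised CPM in NC and at 18.4, 33.9, 20.1 and 23.8 in circSOD2-sh. The groups did not overlap, and circSOD2-sh replicate 2, the library with high neural markers, was the highest. The level rose by 0.59 ± 0.21 on the log2 scale (SE, edgeR, adjusted p = 0.0285). The call was lost without circSOD2-sh replicate 2 (0.27, edgeR, adjusted p = 0.159), without 5 of the other 7 libraries taken singly (all but NC replicate 4 and circSOD2-sh replicate 1) and without NC replicate 4 and circSOD2-sh replicate 2 together (0.31, edgeR, adjusted p = 0.112). The part of the other cells in this value was not tested.

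For miR-324-5p against miR-324-3p, the log2 ratio was 3.50, 5.06, 3.86 and 3.67 in NC, and -0.22, 1.22, 0.35 and 0.62 in circSOD2-sh. In the circSOD2-sh libraries the arms were close to balance, and in replicate 1 the 3p arm was the larger. The ratio was lower by 3.53 ± 0.39 on the log2 scale (SE, limma), which is a description for the same reason. Because the NC counts of the 3p arm are so low, the size depended on the added constant, with -1.51 when 5 normalised CPM were added to each arm, -4.27 in edgeR on the counts of both arms and -4.58 with 0.5 counts added. It was -3.93 without NC replicate 4 and circSOD2-sh replicate 2. The 5p share went from 96.5% ± 2.42 (SD, n = 4) to 58.4% ± 10.1 (SD, n = 4). In NC replicate 2, with 105 of 105 counts from the 5p arm, the 95% Wilson interval was 96.5% to 100%, and in circSOD2-sh replicate 1, with 108 of 234, it was 39.9% to 52.6%, both for counting error alone.

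The sum of both miR-324 arms was 14.6, 16.2, 17.2 and 18.1 normalised CPM in NC and 39.4, 49.0, 36.3 and 38.8 in circSOD2-sh. It rose by 1.31 ± 0.14 on the log2 scale (SE, edgeR, adjusted p = 1.92e-05). In this hairpin both arms were higher in circSOD2-sh, the 3p arm by more.

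miR-140 is best known from cartilage, where its host gene WWP2 is also expressed, and its 5p arm is a regulator of the aggrecanase ADAMTS5. In these cells its 3p arm was the abundant one in every library. miR-140-5p stood at 62.3, 67.9, 76.7 and 60.0 normalised CPM in NC and at 94.5, 127, 126 and 89.1 in circSOD2-sh. miR-140-3p stood at 1104, 1218, 1220 and 1220 in NC and at 915, 826, 948 and 872 in circSOD2-sh. Neither arm overlapped between the groups, and the arms moved in opposite directions. miR-140-5p rose by 0.71 ± 0.15 on the log2 scale (SE, edgeR, adjusted p = 0.00215). The change of miR-140-3p was -0.42 ± 0.07 (SE, edgeR, adjusted p = 0.000762), and it was 0.40 to 0.55 with library totals, the upper quartile or the deposited CPM.

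The log2 ratio of miR-140-5p to miR-140-3p was -4.14, -4.16, -3.98 and -4.33 in NC, and -3.27, -2.69, -2.91 and -3.28 in circSOD2-sh. All circSOD2-sh libraries were nearer to balance, with replicate 2 the nearest. The ratio rose by 1.11 ± 0.16 on the log2 scale (SE, limma, adjusted p = 0.000233), or 2.16-fold, and by 0.94 without NC replicate 4 and circSOD2-sh replicate 2. The 5p share went from 5.31% ± 0.50 (SD, n = 4) to 10.9% ± 1.97 (SD, n = 4), so that the 3p arm still held most of the counts. The sum of both arms was 1252 ± 58.3 normalised CPM in NC and 1003 ± 62.5 in circSOD2-sh (SD, n = 4 each), with a log2 change of -0.32 ± 0.08 (SE, edgeR, adjusted p = 0.0044) that was -0.50 without circSOD2-sh replicate 3 and turned to 0.64 with library totals and 0.68 with the upper quartile.

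miR-361 was the most one-sided of the hairpins. miR-361-5p is known as a regulator of VEGFA, the growth factor that VHL loss raises in clear cell carcinoma. miR-361-5p stood at 1881, 1954, 2158 and 1837 normalised CPM in NC and at 1836, 2113, 2147 and 2071 in circSOD2-sh. The groups overlapped, and the log2 change of 0.06 ± 0.08 was not called (SE, edgeR, adjusted p = 0.522), although with library totals, the upper quartile or the deposited CPM it was called at 0.88 to 1.03. miR-361-3p stood at 15.8, 20.2, 19.95 and 14.6 in NC and at 29.9, 32.8, 35.9 and 34.7 in circSOD2-sh. The minor arm was higher in all 4 circSOD2-sh libraries than in any NC library, and it rose by 0.92 ± 0.15 on the log2 scale (SE, edgeR, adjusted p = 0.000432).

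For miR-361-5p against miR-361-3p, the log2 ratio was 6.85, 6.56, 6.72 and 6.93 in NC, and 5.92, 5.99, 5.88 and 5.88 in circSOD2-sh. The spread within circSOD2-sh was the smallest of the 5 hairpins, and the ratio fell by 0.85 on the log2 scale (SE 0.12, limma, adjusted p = 0.000176). In shares this was a step from 99.1% ± 0.10 to 98.4% ± 0.05 of counts on the 5p arm (SD, n = 4 each), so the second arm stayed a minor product in both groups. The sum of both arms was 1967 ± 136 normalised CPM in NC and 2085 ± 168 in circSOD2-sh (SD, n = 4 each), a difference that was not called (edgeR, adjusted p = 0.400).

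miR-423 had the arms nearest to balance in NC and low counts, 28 to 61 for the 5p arm and 55 to 99 for the 3p arm. miR-423-5p is known as a circulating marker of heart failure. miR-423-5p stood at 7.98, 9.39, 6.82 and 7.42 normalised CPM in NC and at 4.93, 7.42, 5.62 and 5.69 in circSOD2-sh. The groups overlapped, through circSOD2-sh replicate 2, and the log2 change of -0.42 ± 0.18 was not called (SE, edgeR, adjusted p = 0.0643). It was called at -0.66 without circSOD2-sh replicate 2 (edgeR, adjusted p = 0.00998), at -0.53 without NC replicate 3, at -0.55 without circSOD2-sh replicate 3, at -0.68 without NC replicate 4 and circSOD2-sh replicate 2 together and at -0.48 with the RLE scaling (edgeR, adjusted p = 0.0386). With the other scalings its direction turned, with 0.34 to 0.54 for library totals, the upper quartile or the deposited CPM. miR-423-3p stood at 11.04, 8.93, 11.4 and 12.4 in NC and at 16.8, 14.3, 16.3 and 14.4 in circSOD2-sh. The groups did not overlap, and the level rose by 0.50 ± 0.15 on the log2 scale (SE, edgeR, adjusted p = 0.0168). This call was lost without NC replicate 1 or 2, or without circSOD2-sh replicate 1, 3 or 4 (changes of 0.33 to 0.51 and adjusted p = 0.027 to 0.116 in edgeR over the libraries left out in turn).

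The log2 ratio of miR-423-5p to miR-423-3p was -0.45, 0.07, -0.70 and -0.70 in NC, and -1.67, -0.90, -1.45 and -1.27 in circSOD2-sh. NC replicate 2 was the only library with the 5p arm ahead. The ratio fell by 0.88 on the log2 scale (SE 0.22, limma, adjusted p = 0.00724), and the 5p share went from 42.0% ± 6.51 to 27.7% ± 4.88 (SD, n = 4 each). The sum of both arms was 18.8 ± 0.73 normalised CPM in NC and 21.4 ± 1.04 in circSOD2-sh (SD, n = 4 each) and was not called (0.19, edgeR, adjusted p = 0.178), although the groups did not overlap. This difference was 0.034 without circSOD2-sh replicate 3, and it was called at 1.15 with library totals and 1.20 with the upper quartile.

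**Figure D3:**
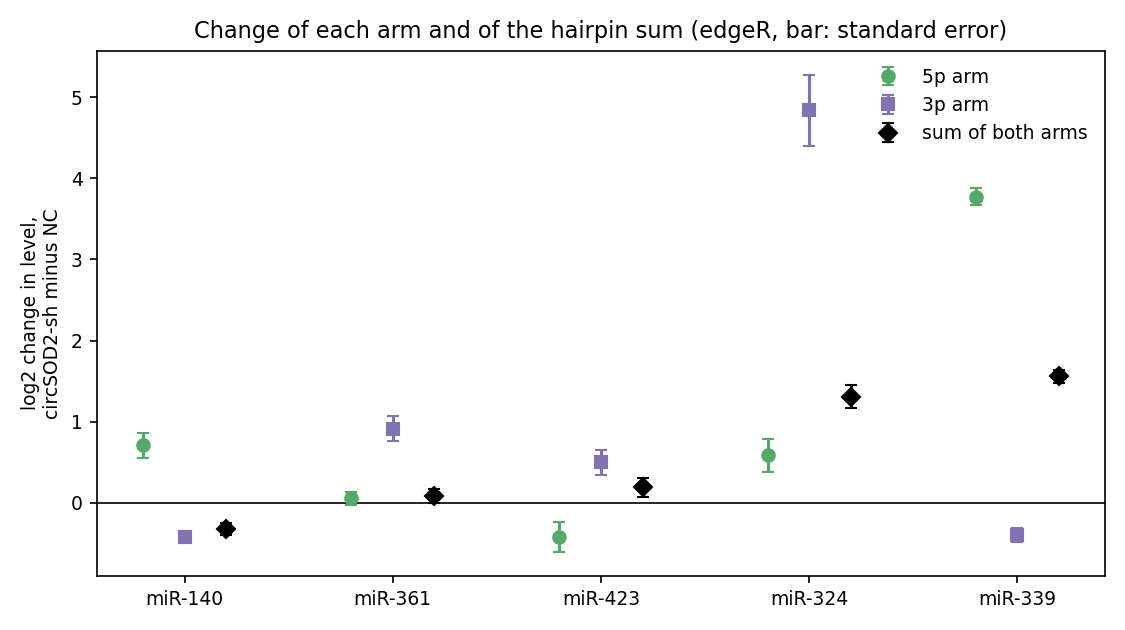
The log2 change in level from NC to circSOD2-sh is plotted for the 5p arm, the 3p arm and the sum of both arms of each hairpin, with error bars of 1 SE (edgeR, TMM scaling). The 2 arms lie on opposite sides of 0 in miR-339 (3.77 and -0.40), miR-140 (0.71 and -0.42) and miR-423 (-0.42, not called, and 0.50), and the negative values turned positive with library totals, the upper quartile or the deposited CPM.

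Set beside one another, the members shared no direction and no common dominant arm. Both arms were called in 3 of the 5 members, miR-339, miR-140 and miR-324, and in 39 of 117 hairpins. For miR-324 the filter had fixed the call of the 3p arm, and that of the 5p arm was lost in 6 of 8 fits with 1 library left out. The 2 arms were called in opposite directions in 2 members, miR-140 and miR-339, and in 21 of 117 hairpins (17.9%), a description that rests on the TMM scaling. By the size of the ratio change, miR-339 ranked 7 of 117, miR-324 ranked 12, and miR-140, miR-423 and miR-361 ranked 42, 47 and 49. These ranks depended on the constant added to the arms, most of all for miR-324, which ranked 25 with 5 normalised CPM, 8 with 0.5 counts and 10 in edgeR on the counts of both arms. miR-339 ranked 4, 10 and 11 under these settings. Among changes toward the 5p arm miR-339 was first of the 117 with 0.5 or 5 normalised CPM added, second with 0.5 counts and in 3rd place in edgeR. The median size of the ratio change was 1.11 on the log2 scale in the 5 members, miR-324 included, and 0.60 in all 117 hairpins.

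**Figure D4:**
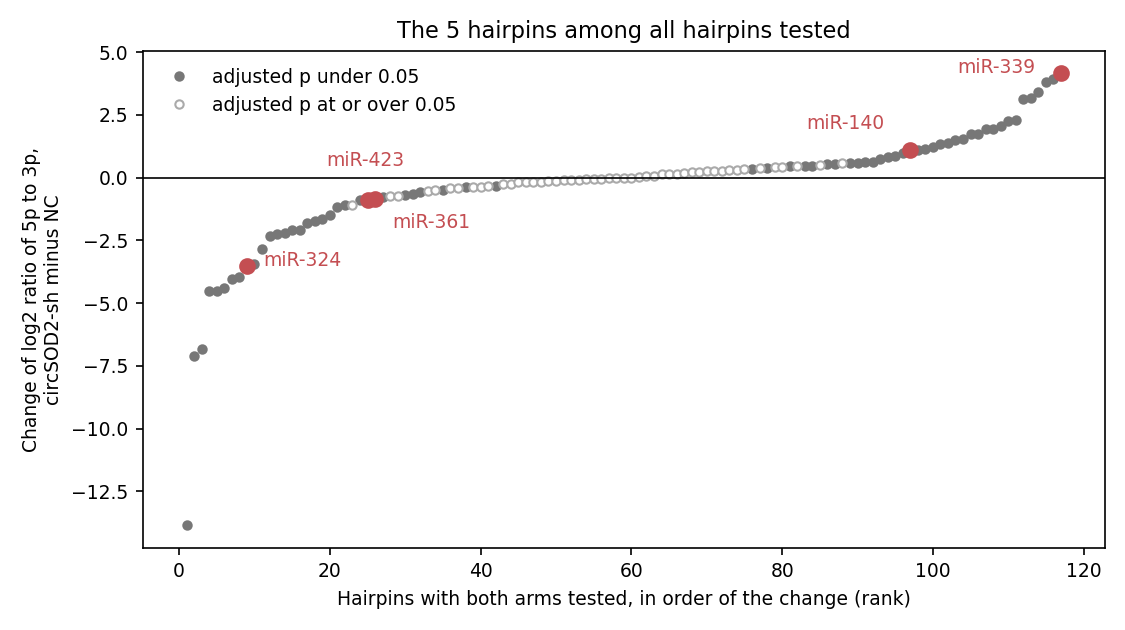
The change in the log2 5p to 3p ratio, circSOD2-sh minus NC, is plotted for the 117 hairpins tested in order of the change, with filled points for adjusted p under 0.05 in limma and the 5 members in red. miR-339 lies at the upper end with 4.15, miR-324 near the lower end with -3.53, a size that depended on the added constant (-1.51 with 5 normalised CPM), and the other members between -0.88 and 1.11.

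A second list of 17 hairpins of the same kind, with a single locus and arms that are commonly both detected, was used for comparison. Of these, 14 had both arms tested and miR-330, miR-590 and miR-671 did not. The ratio was called in 9 of the 14, against 68 of all 117 hairpins tested (58.1%). Of the 9, 5 moved toward the 5p arm and 4 toward the 3p arm. The median size of the change in the 14 was 0.81 on the log2 scale. These values include miR-378a, whose call the filter had fixed. They also include miR-652, whose 5p arm averaged 0.91 normalised CPM in NC and 2.98 in circSOD2-sh. The low-count cutoff was 1.89 CPM before TMM scaling, and miR-652-5p lay below it in NC, so its call is likewise a description. miR-378a moved most toward its 5p arm, by 3.81 on the log2 scale, but this arm held 0 to 11 counts per NC library and passed the low-count filter through circSOD2-sh alone (52 to 83 counts), so no test is given. The ratio of miR-625 rose by 2.25 (limma, adjusted p = 4.18e-06). The ratio of miR-574 fell by 4.03 (limma, adjusted p = 6.54e-08) and that of miR-744 by 1.73 (limma, adjusted p = 5.14e-05). Changes of the size seen in miR-339 and miR-324 thus also occurred in this list, toward the 3p arm in miR-574 and, as a description only, toward the 5p arm in miR-378a.

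For each member, the hairpin whose centred log2 ratio was most like it over the 8 libraries was taken from the other 116, by the mean absolute difference. This was miR-15b for miR-339 (0.262), miR-181b for miR-324 (0.405), miR-20a for miR-140 (0.133), miR-331 for miR-361 (0.151) and miR-21 for miR-423 (0.157). The 8 libraries fall into the same 2 groups for each of these hairpins, so that this measure mainly orders hairpins by the size of the group difference.

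The first bases of the sequences given above were then read against the changes in level, a reading that was chosen after the values were seen and that carries no test. The number of C among bases 1 to 8 was 4 or 5 in miR-361-3p (5), miR-324-5p (5), miR-324-3p (5) and miR-339-5p (4), and 1 to 3 in the other 6 arms. The 4 arms with 4 or more C were all called higher in circSOD2-sh, miR-324-5p and miR-324-3p with the limits given above. Among the 403 known miRNAs tested that had a RefSeq sequence, 36 held 4 or more C there, with a median log2 change of 1.98 under TMM scaling, and 28 of them were called higher (77.8%) and 0 lower in edgeR. The other 367 had a median of -0.19, with 81 called higher (22.1%) and 115 lower. A change of over 2 was found in 18 of the 36 and in 35 of the 367. The 36 include miR-324-3p and miR-378a-5p, which passed the low-count filter through circSOD2-sh alone, so the filter had fixed their calls. They also include miR-652-5p, which lay below the cutoff in NC. Passage by group was read by name only for the members and miR-378a-5p, so further calls among the 36 may have been fixed in the same way. The counts were not repeated on miRNAs that passed in libraries of both groups.

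The arm ratios followed this count in part. The 5p arm held more C in miR-339, the 3p arm in miR-140, miR-423 and miR-361, and the arms held equal numbers in miR-324. The ratio moved toward the arm with more C in miR-339, miR-423 and miR-361, and away from it in miR-140. Over the hairpins tested with a RefSeq sequence for both arms, 26 had more C in the 5p arm. Their median ratio change was 0.47, with 13 called toward the 5p arm against 5 toward the 3p arm. In the 52 with more C in the 3p arm the median was -0.12, with 14 called toward the 5p arm and 18 toward the 3p arm. In the 20 with equal numbers, miR-324 among them, the median was 0.06, with 4 called toward the 5p arm and 5 toward the 3p arm. The 26 include miR-378a, whose 5p arm passed the low-count filter through circSOD2-sh alone, and miR-652, whose 5p arm lay below the cutoff in NC. These counts were not repeated on the 100 hairpins whose arms passed in libraries of both groups, so calls fixed by the filter may lie in each class. The libraries were made by ligating adapters to the 3′ and then the 5′ end of the RNA, and the part of ligation, or of any other step, in this pattern was not tested.

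**Figure D5:**
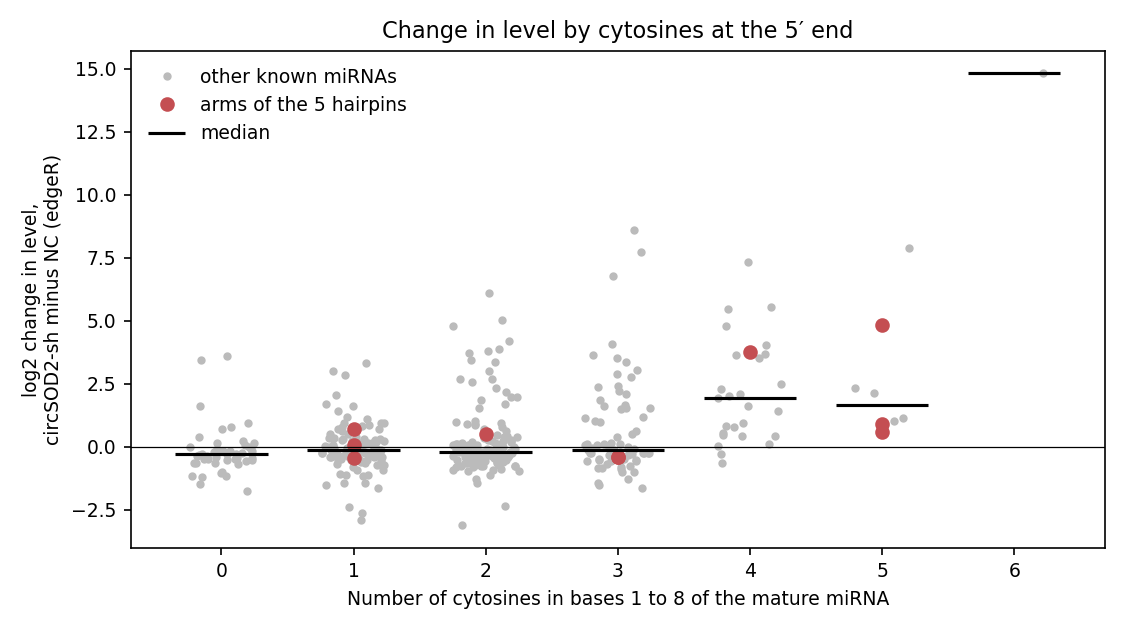
The log2 change in level from NC to circSOD2-sh (edgeR, TMM scaling) is plotted against the number of C among the first 8 bases for the 403 known miRNAs tested with a RefSeq sequence, with the 10 members marked. The median lies at 1.98 for the 36 miRNAs with 4 or more C and at -0.19 for the 367 with 3 or fewer. The 36 include miR-324-3p and miR-378a-5p, which passed the low-count filter through circSOD2-sh alone, and miR-652-5p, which lay below its cutoff in NC. Most others of the 36 were not read for this by name.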

How the data were processed

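The authors deposited whole counts per mature miRNA for 8 libraries, and the same values as CPM, whose total was larger than the sum of the listed counts (the share listed was 93.3% to 93.9% for NC and 83.7% to 85.7% for circSOD2-sh). The submitters' processing notes name the GRCh38 build, FastQC 0.11.2, Trimmomatic 0.36 and Bowtie 1.1.1, with no role; the counting tool and miRNA annotation are not given in the sources used here. A table of the authors' own comparison (mean CPM, fold changes, p- and q-values) was not used.

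Here, miRNAs past filterByExpr (minimum count 10) were tested in edgeR 4.0.16 (TMM, quasi-likelihood, prior count 0.125, Benjamini-Hochberg over all 895). The same test was run on 786 rows with arms summed. Ratios per library were log2((5p + 0.5)/(3p + 0.5)) of normalised CPM, tested in limma 3.58.1 over 117 hairpins paired by name. Exact two-sided permutation tests over libraries used log2(normalised CPM + 1) for levels, in scipy 1.17.1; the 10 tests of levels and 5 of ratios each had 0.0286 as the smallest p-value. R was 4.3.3, and DESeq2 1.42.0 and limma on the deposited CPM served as alternatives, with other scalings, filters, constants, a replicate block and single libraries left out. The code was tested on simulated data. Wilson intervals (95%) and floors cover counting error only, since reads carried no molecular identifiers.

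Named miRNAs were the 10 members, the 2 largest rises and 2 largest falls of the ratio in a list of 17 other hairpins, and the hairpin nearest to each member. Members and lists were chosen with earlier results of these data known. Within a group no 2 libraries agreed within sampling noise (chi-square per degree of freedom 9.45 to 128).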

Additional observations from a re-analysis of the deposited data

Results flagged for a closer look

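Levels, ratios and sums of the members gave 40 groups of 4 libraries, of which chance alone would mark about 1 in 20. In 2 of them, which share their counts, 1 library stood apart from the other 3. miR-140-3p was at 1104 normalised CPM in NC replicate 1 and between 1218 and 1220 in the other NC libraries, a gap of 0.985 of the group's range. The sum of both miR-140 arms was 1165 normalised CPM in NC replicate 1 and between 1274 and 1287 in the others, a gap of 0.891 of the range. The log2 ratio of the miR-140 arms in that library, -4.14, lay inside the range of the other 3.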

How the results depend on the processing

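The arm ratios kept their direction and their call in 70 of 70 values over 14 alternatives (43.4% to 65.0% of all hairpins tested called in these), with 0.94 to 1.20 for miR-140, -1.10 to -0.60 for miR-423, -0.92 to -0.71 for miR-361, -4.58 to -1.51 for miR-324 and 3.97 to 4.21 for miR-339. The 14 values of miR-324 among the 70 are a description, because its 3p arm passed the low-count filter through circSOD2-sh alone. The levels depended on the scaling. With library totals the log2 change was 0.55 for miR-140-3p, 0.57 for miR-339-3p, 0.54 for miR-423-5p and 0.64 for the sum of miR-140; with the upper quartile it was 0.43, 0.45, 0.41 and 0.68. With limma on the deposited CPM plus 1 it was 0.40, 0.42 and 0.34 for these 3 arms, and plus 0.1 it was 0.40, 0.43 and 0.39. Each was negative with TMM, and 5 of 5 sums were called under library totals (87.3% of all rows tested) and the upper quartile (88.0%) against 3 with TMM (66.7%). The sum of miR-361, 0.08 with TMM, was -0.036 with RLE and with DESeq2, -0.023 without the filter and -0.017 without NC replicate 4 and circSOD2-sh replicate 2, where miR-361-5p was -0.090. With 1 library left out in turn, miR-361-5p ranged from -0.12 to 0.061 and the sum of miR-361 from -0.092 to 0.095, neither called. With a mean of at least 50 counts, miR-423-5p and miR-324-3p were not tested. The cause of these shifts was not tested beyond the scaling itself. Deviations from the group means correlated at 0.26, -0.099, 0.096 and -0.17 for the 4 replicate numbers, and 2 of 4 correlated best with their own. NC replicate 4 correlated best with circSOD2-sh replicate 2, the other library with markers of other cell types. These 4 values cannot decide whether the numbers pair the libraries. With the replicate block 8 of 10 levels (64.1% of all), 5 of 5 ratios (54.7%) and 3 of 5 sums (66.0%) were called, the same numbers as without it. The levels and ratios called include miR-324-3p and the miR-324 ratio, whose calls the filter had fixed. Depth limits miR-324-3p in NC and both arms of miR-423 most.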
